A study of Mus musculus with 10 samples.

Results

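The genes described here encode the chains of collagen VI and of the fibril-associated collagens measured in mouse tibialis anterior, a fast muscle of the lower hind limb. They were chosen by name as members of these collagen types, by a rule that uses no measured value but was set with earlier results of these data known. They are Col6a1, Col6a2, Col6a3, Col6a5, Col6a6, Col12a1, Col14a1 and Col16a1, and make up 8 of the 39179 gene identifiers listed for every library. RNA from 4 Control mice was compared with RNA from 6 LLC mice, 1 library per mouse. LLC mice had been injected under the skin of both flanks with Lewis lung carcinoma cells, a mouse lung tumor line, and carried the tumors for 23 days, whereas Control mice received phosphate-buffered saline. The sample labels give the strain as C57BL/6J and the age at injection as 10 weeks, but the series description gives C57BL/10 males aged 8 weeks and studied at day 22, and both versions stand here because the labels do not settle which is right. In either version all mice are of 1 inbred background, the tumor comes from 1 cell line, and the LLC mice sequenced were among those still alive at the end, so the comparison describes 1 late stage of 1 model.

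Collagen VI is built from 3 different chains, encoded by Col6a1, Col6a2 and Col6a3, that wind together and assemble outside the cell into beaded microfilaments close to the basement membrane of muscle fibers. Chains encoded by Col6a5 and Col6a6 can take the place of the Col6a3 chain. In muscle, collagen VI is made mainly by interstitial fibroblasts, and loss of any main chain causes Ullrich and Bethlem muscular dystrophies. Collagens XII, XIV and XVI belong to the fibril-associated collagens with interrupted triple helices, which attach to the surface of collagen fibrils and link them to each other and to other matrix proteins. Col12a1 mutations likewise cause a myopathy with lax joints.

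Depth ranged from 16693209 to 21303084 counts per library, and 3 counts, taken as the detection floor, corresponded to 0.148 to 0.174 CPM, the counts of a gene scaled to a common library total. Values below are CPM scaled by trimmed mean of M-values (TMM) factors. Skeletal muscle fiber markers were abundant in every library, with summed CPM of 104000 to 112000 in Control and 70500 to 114000 in LLC. The library LLC 1 stood apart from the other LLC libraries, with Acta1, the skeletal muscle actin gene, at 8729 CPM against 14505 to 18774 in the other 5 and 20524 to 22398 in Control. Results are therefore also given without LLC 1. Counts from mitochondrial genes took 28.45% to 30.67% of each Control library and 21.99% to 27.94% of each LLC library, and their part in the results was not tested beyond a fit without those genes, in which 7 of the 8 genes remained lower in LLC.

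All 7 genes of the group that could be tested were lower in LLC than in Control, by 3.95-fold for Col6a6 to 5.81-fold for Col12a1. The eighth, Col6a5, was at the limit of detection in both groups. A gene was called where edgeR's quasi-likelihood test gave a Benjamini-Hochberg adjusted p of at most 0.05 over the 12690 genes tested together with a change of at least 1.5-fold. By that rule 3.99% of all tested genes were lower in LLC. Every LLC library was below every Control library for each of the 7, a pattern found in the lower direction for 9.57% of tested genes. Their median log2 fold change was -2.23, beside 0.00193 over all tested genes. Counting the 7 themselves, 39 of the 12690 tested genes (0.307%) fell at least as far as the gene among the 7 with the smallest change. That cutoff is 1 of their own values, so the share is a description only. Col6a6, Col12a1 and Col14a1 passed the filter on low counts only through their Control libraries, so that with LLC levels this low they could be tested only because Control was higher. Col6a1, Col6a2, Col6a3 and Col16a1 had enough counts to pass in either group. All 7 were also called without LLC 1, where 5.37% of tested genes were lower, and by DESeq2, where 5.23% were. In whole muscle, fewer cells making a transcript and less of it per cell cannot be told apart.

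**Figure D1:**
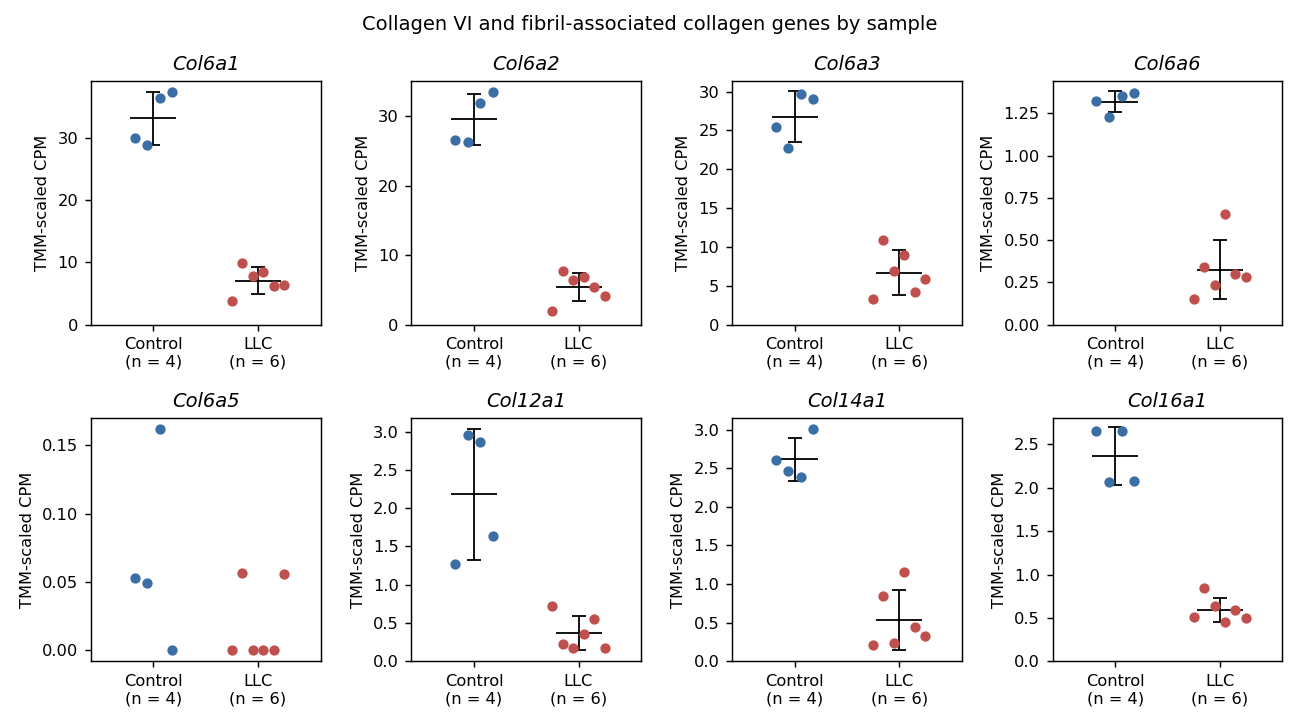
TMM-scaled CPM (y axis, linear, separate scale per panel) of the 8 genes in 4 Control (blue) and 6 LLC (red) libraries, each point 1 mouse, with the mean and SD as black bars except for Col6a5, which had 0 to 3 counts per library. In the 7 other panels all LLC points lie below all Control points.

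Col6a1, Col6a2 and Col6a3, the chains of the main heterotrimer, were the most abundant of the 8 genes and fell together. Col6a1 (ENSMUSG00000001119, chr10:76708792-76726168, minus strand, GRCm38) encodes the alpha 1 chain. Its level in the 4 Control libraries was 30.0, 28.8, 36.3 and 37.3 CPM. LLC libraries 1 to 6 gave 3.81, 9.88, 7.82, 8.41, 6.20 and 6.32 CPM. The lowest Control value was thus well above the highest LLC value, and LLC 1 was the lowest of all. The Control mean of 33.1 ± 4.30 CPM (SD, n = 4) compared with an LLC mean of 7.07 ± 2.11 CPM (SD, n = 6). On the log2 scale the fold change was -2.23 with an SE of 0.21 (edgeR quasi-likelihood adjusted p = 0.000184).

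Col6a2 (ENSMUSG00000020241, chr10:76595762-76623630, minus strand) encodes the alpha 2 chain and lies 85.2 kb from Col6a1 on the same strand. Control libraries held 26.6, 26.3, 31.9 and 33.5 CPM. LLC libraries 1 to 6 held 2.01, 7.68, 6.37, 6.85, 5.50 and 4.19 CPM. LLC 1 was again the lowest and LLC 2 the highest of the 6. The mean went from 29.6 ± 3.66 CPM (SD, n = 4) to 5.43 ± 2.06 CPM (SD, n = 6), which gave -2.44 as log2 fold change (SE 0.27, edgeR quasi-likelihood adjusted p = 0.0004).

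Col6a3 (ENSMUSG00000048126, chr1:90765923-90843971, minus strand) encodes the longest of the main chains, whose carboxy-terminal fragment is the secreted peptide endotrophin. Its Control levels were 25.5, 22.7, 29.7 and 29.1 CPM. In LLC libraries 1 to 6 the levels were 3.34, 10.9, 6.89, 9.02, 4.26 and 5.87 CPM. LLC 1 was lowest and LLC 2 highest here too. Means were 26.8 ± 3.27 CPM (SD, n = 4) and 6.71 ± 2.86 CPM (SD, n = 6), with a log2 fold change of -1.996 (SE 0.27, edgeR quasi-likelihood adjusted p = 0.00109). Without LLC 1 the log2 fold changes of Col6a1, Col6a2 and Col6a3 were -2.09, -2.26 and -1.85.

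Sequence upstream of these 3 genes is shown because their transcripts fell together and their proteins assemble into a single heterotrimer. Each stretch comes from the RefSeq promoter entry (GRCm38.p6), is written 5′ to 3′ on the minus strand, from which all 3 are transcribed, and stops before the first annotated base of the gene. The stretches are chr10:76726169-76726294 for Col6a1, chr10:76623631-76623880 for Col6a2 and chr1:90843972-90844221 for Col6a3. Capitals mark matches to 1 of 7 motifs searched on both strands.
Col6a1: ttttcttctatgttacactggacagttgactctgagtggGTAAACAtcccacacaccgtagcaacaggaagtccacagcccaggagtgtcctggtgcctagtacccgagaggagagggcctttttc
Col6a2: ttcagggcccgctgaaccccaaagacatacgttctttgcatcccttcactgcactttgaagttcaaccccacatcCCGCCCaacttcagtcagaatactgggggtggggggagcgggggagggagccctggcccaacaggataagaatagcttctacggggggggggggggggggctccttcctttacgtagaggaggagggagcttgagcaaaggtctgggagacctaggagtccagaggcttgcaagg
Col6a3: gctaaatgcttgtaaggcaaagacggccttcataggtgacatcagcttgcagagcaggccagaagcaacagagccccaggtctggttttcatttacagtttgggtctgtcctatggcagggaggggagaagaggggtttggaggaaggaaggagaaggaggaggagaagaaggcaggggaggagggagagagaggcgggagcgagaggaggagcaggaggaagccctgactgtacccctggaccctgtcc

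The motifs were those of transcription factor families the study discusses, namely FoxO, searched as the letters GTAAACA, then AP-1, searched as the letters TGANTCA, then STAT, searched as the letters TTCNNNGAA, and NF-kB. The study reports these families for promoters of its up-regulated genes. For its down-regulated genes it reports other factors, among them myogenic ones, whose motifs were not searched here. The other motifs were common promoter elements, namely the GC box, searched as the letters GGGCGG, the TATA box, searched as the letters TATAAA, and the CCAAT box. Overlapping matches were each counted. Over the 250 bases before the RefSeq start, Col6a1 held a FoxO match 211 bases upstream and an AP-1 match 90 bases upstream, the latter outside the stretch shown. FoxO and AP-1 motifs occurred in 3.17% and 6.75% of the 32851 promoters of that length. Col6a2 held a GC box 175 bases before 1 of its annotated starts and others before its second start, and GC boxes occurred in 32.7% of promoters. Col6a3 held none of the 7 motifs. The 3 stretches therefore shared no searched motif. These are matches of letters and not binding measurements. Col12a1 and Col14a1 had no entry.

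Col6a6 and Col6a5 encode alternative chains related to the Col6a3 chain and lie next to each other on chromosome 9, 27.9 kb apart. Col6a6 (ENSMUSG00000043719, chr9:105687809-105828160, minus strand) was measured at 1.32, 1.23, 1.35 and 1.37 CPM in Control, which was 25 counts in each library. LLC libraries 1 to 6 gave 0.154, 0.339, 0.232, 0.655, 0.297 and 0.280 CPM, or 3, 6, 4, 13, 6 and 5 counts. LLC 4 was the highest of the 6 and LLC 1 was at the floor of 3 counts. The log2 fold change was -1.98 (SE 0.29, edgeR quasi-likelihood adjusted p = 0.00176), and its exons overlap the antisense gene Gm38314 over 63 bases (0.687% of its exon length). Col6a5 (ENSMUSG00000091345, chr9:105856078-105960643, minus strand) had 1, 1, 3 and 0 counts in Control and 0, 1, 0, 0, 0 and 1 in LLC, so a difference was not detectable at this depth and no fold change was computed.

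Genes around the collagen VI loci were not called. Within 200 kb of these loci, a distance chosen after the values were seen, 10 other genes were tested and 0 were called by edgeR or by DESeq2, although 3 had an unadjusted p under 0.05. Around Col6a1 and Col6a2 the log2 fold changes of 5 neighbors ran from -0.56 to 0.20. For 2 neighbors of Col6a5 and Col6a6 they ran from 0.0076 to 0.14, and for 3 neighbors of Col6a3 from -0.18 to 1.04.

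The 3 fibril-associated collagen genes were less abundant and fell by 3.98-fold for Col16a1, 4.78-fold for Col14a1 and 5.81-fold for Col12a1. Col12a1 (ENSMUSG00000032332, chr9:79598991-79718831, minus strand) encodes collagen XII, found in tendon, fascia and the muscle connective tissue. Its Control libraries held 1.27, 2.96, 2.87 and 1.64 CPM, the widest Control spread of the 7 genes (CV 39.2%). LLC libraries 1 to 6 held 0.720, 0.226, 0.174, 0.353, 0.545 and 0.168 CPM. Here LLC 1, lowest for most of the other genes, was the highest, and LLC 3 and LLC 6 had 3 counts each, for which the exact Poisson 95% interval is 0.619 to 8.77 counts. The means were 2.19 ± 0.856 CPM (SD, n = 4) and 0.364 ± 0.225 CPM (SD, n = 6), which is -2.54 as a log2 fold change (SE 0.38, edgeR quasi-likelihood adjusted p = 0.0022).

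Col14a1 (ENSMUSG00000022371, chr15:55307750-55520803, plus strand) encodes collagen XIV, also known as undulin, which binds the proteoglycan decorin on fibrils. It gave 2.60, 2.47, 2.38 and 3.01 CPM in Control. LLC libraries 1 to 6 gave 0.206, 0.847, 0.232, 1.16, 0.446 and 0.335 CPM. LLC 2 and LLC 4 were the highest of the LLC libraries, and the CV within LLC, 71.3%, was the largest of the 7 genes. The means were 2.61 ± 0.28 CPM (SD, n = 4) and 0.538 ± 0.383 CPM (SD, n = 6), with a log2 fold change of -2.26 (SE 0.36, edgeR quasi-likelihood adjusted p = 0.00333).

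Col16a1 (ENSMUSG00000040690, chr4:130047840-130099283, plus strand) encodes collagen XVI, a minor collagen of fibrillin microfibrils and thin fibrils. Control values were 2.65, 2.07, 2.65 and 2.08 CPM. The LLC values were 0.514, 0.847, 0.637, 0.454, 0.595 and 0.503 CPM. This was the most even of the genes within LLC, with a CV of 23.9% and no library far from the others. Its mean went from 2.36 ± 0.33 CPM (SD, n = 4) to 0.592 ± 0.142 CPM (SD, n = 6), or -1.99 as a log2 fold change (SE 0.19, edgeR quasi-likelihood adjusted p = 0.000184). Col12a1 fell further without LLC 1, with a log2 fold change of -2.83, against -2.08 for Col14a1 and -1.95 for Col16a1.

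**Figure D2:**
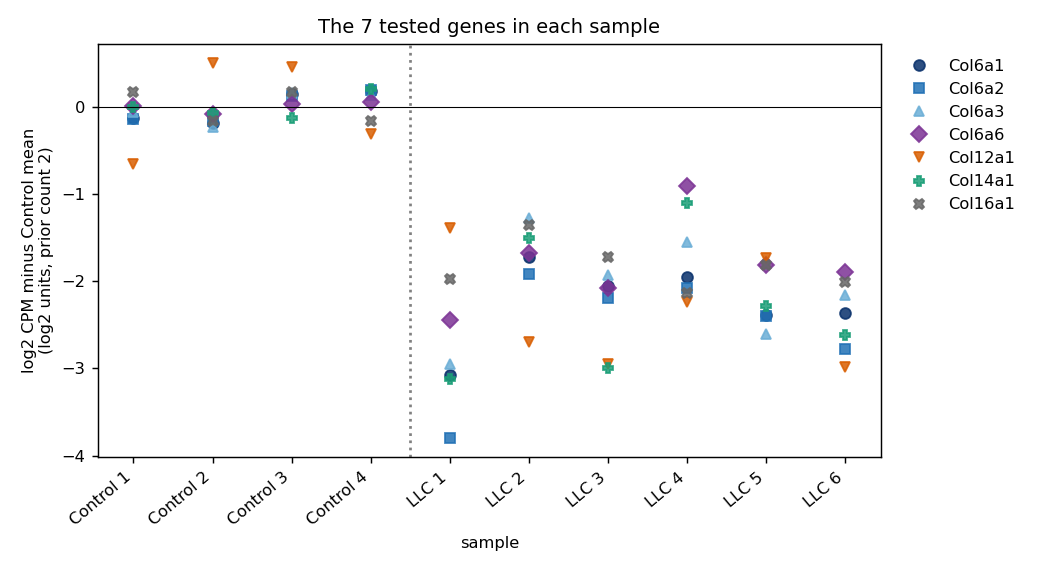
Difference of log2 CPM from the gene's own Control mean (y axis, log2 units, prior count 2) for the 7 tested genes in each of the 10 libraries (x axis). All LLC points lie below all Control points of their gene. In LLC 1 the genes spread from Col6a2, lowest, to Col12a1, highest, and LLC 4 has Col6a6 and Col14a1 above the rest.

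Per kilobase of merged exon, the Control levels ran in the order Col6a1, Col6a2, Col6a3, Col14a1, Col16a1, Col6a6, Col12a1 and Col6a5. Col6a1 stood at 7.56 ± 0.981 CPM per kb, Col6a2 at 3.55 ± 0.439 and Col6a3 at 2.24 ± 0.274 (SD, n = 4), with no overlap between neighbors. Col14a1 at 0.373 ± 0.04 and Col16a1 at 0.35 ± 0.0489 CPM per kb overlapped, as did Col6a6 at 0.144 ± 0.00654 and Col12a1 at 0.144 ± 0.0562. In LLC the order kept Col6a1 first, at 1.61 ± 0.482 CPM per kb (SD, n = 6), then Col6a2 at 0.653 ± 0.248 and Col6a3 at 0.561 ± 0.239, now with overlapping ranges. The 3 main chains stayed above all the others. In Control, but not in LLC, the order of Col14a1 and Col16a1 turned when length was taken from the longest transcript, and so did that of Col6a6 and Col12a1. That length also raised Col6a2 to 6.02 CPM per kb in Control, so levels of unlike genes are approximate.

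Ratios between genes within a library show whether the chains kept their proportions, and do not depend on how libraries are scaled. The log2 ratio of Col6a2 to Col6a1 was -0.175, -0.132, -0.185 and -0.156 in Control, a tight range. In LLC libraries 1 to 6 it was -0.915, -0.363, -0.294, -0.295, -0.171 and -0.588. LLC 5 lay within the Control range and the other 5 LLC libraries were below it, LLC 1 furthest. On average the ratio was lower in LLC by a difference of -0.275, which did not pass (p = 0.0286 from a two-sided exact permutation, adjusted p = 0.114 over 8 ratios), and without LLC 1 it was -0.18.

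For Col6a3 against Col6a2 the log2 ratio was -0.0586, -0.212, -0.104 and -0.2 in Control. In LLC libraries 1 to 6 it was 0.73, 0.503, 0.113, 0.395, -0.366 and 0.483. Thus 5 of 6 LLC libraries were above every Control library and LLC 5 was below them all. The difference, 0.453, did not pass (exact permutation p = 0.0571, adjusted p = 0.152). Col6a3 against Col6a1 also differed by less than the test could call, with a difference of 0.178 (exact permutation p = 0.219, adjusted p = 0.396), 5 LLC libraries above all Control and LLC 5 below. LLC 5 was the only library that went against the other 5 in these ratios. Without it the differences were -0.329 for Col6a2 to Col6a1, 0.588 for Col6a3 to Col6a2 and 0.259 for Col6a3 to Col6a1, the groups no longer overlapped, and the exact permutation adjusted p of 0.0317 follows from leaving out that library and is no separate evidence.

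Ratios that involve the less abundant chains were not distinguishable between groups, and their LLC spread was wide. Col6a6 to Col6a3 differed by 0.044 (exact permutation adjusted p = 0.867), Col14a1 to Col12a1 by 0.116 (adjusted p = 0.867), Col16a1 to Col12a1 by 0.633 (adjusted p = 0.396) and Col12a1 to Col6a1 by -0.327 (adjusted p = 0.867), all on the log2 scale. The SD among LLC libraries reached 1.31 log2 units, for Col14a1 to Col12a1.

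Relative to Col1a1, Col1a2 and Col3a1, the main collagen VI chains were higher in every LLC library than in any Control library. The test of this difference did not pass its correction. The summed counts of Col6a1, Col6a2 and Col6a3 over those of Col1a1, Col1a2 and Col3a1, which build the thick fibrils of types I and III, had log2 ratios of -1.05, -1.30, -1.22 and -1.23 in Control. LLC libraries 1 to 6 gave 0.0832, -0.54, -0.634, -0.647, -0.269 and 0.0449. The groups did not overlap, and the ratio was 1.83-fold higher in LLC, a log2 difference of 0.873 (6 of 6 LLC libraries above all Control). The two-sided exact permutation p of 0.00952 is the smallest that 4 against 6 libraries allow, but the adjusted p over 8 ratios was 0.0762 and did not pass. Leaving out 1 library in turn gave differences from 0.791 to 0.937 with adjusted p up to 0.19 by exact permutation. Without LLC 5 the difference was 0.861 and the adjusted p 0.0317, lower only because 3 other ratios then also reached the smallest p.

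**Figure D3:**
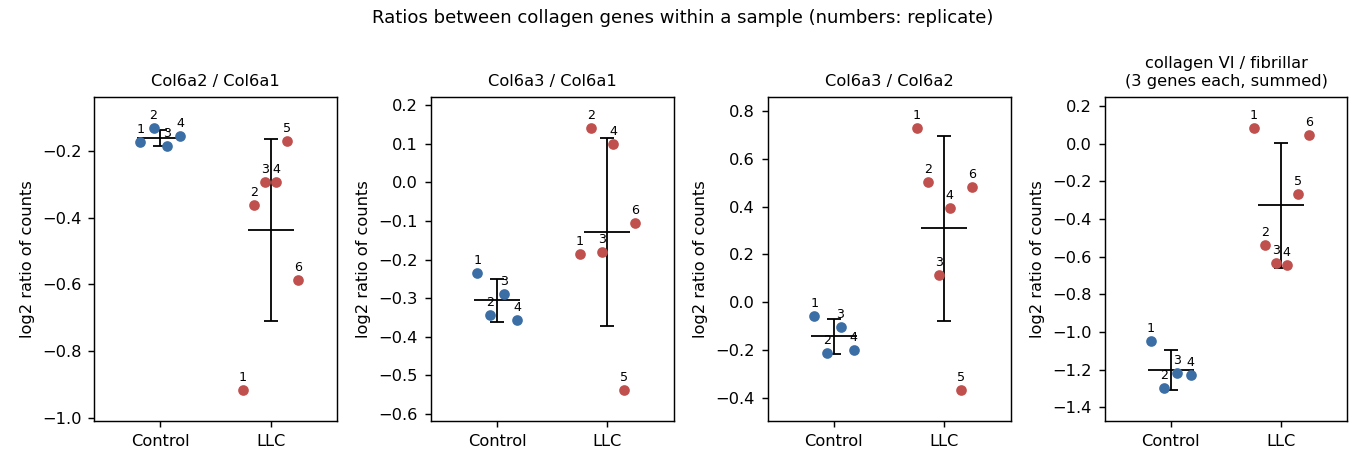
Log2 ratio of counts (y axis) between collagen genes within each library, for 4 Control (blue) and 6 LLC (red) mice, with replicate numbers beside the points and the mean and SD as black bars. In the first 3 panels 5 of 6 LLC libraries lie on 1 side of all Control libraries and LLC 5 does not. In the last panel, Col6a1, Col6a2 and Col6a3 over Col1a1, Col1a2 and Col3a1, all 6 lie above.

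Of the fibrillar collagens, 6 of 7 tested were lower in LLC, with a median log2 fold change of -1.97. The count was 5 to 6 when 1 library was left out in turn. Col3a1 (-3.09, SE 0.39), Col1a1 (-3.08, SE 0.29) and Col1a2 (-2.77, SE 0.33) fell the furthest, from a Control mean of 100, 45.8 and 60.2 CPM respectively. Col5a1, a chain of collagen V, which starts fibril assembly, fell by 1.97 (SE 0.32). Named after their values were seen, Col5a2 (-1.8, SE 0.24) and Col5a3 (-1.21, SE 0.27) also fell, and Col11a2 (-0.18, SE 0.25) was not called. None of these fell further than Col6a1, Col6a2 or Col6a3, and none was part of the ratio above. Of 8 other collagen VI and fibril-associated chains listed, 7 were matched to an identifier and 3 had enough counts to test. Of these 3, 0 were called by edgeR or DESeq2, although 1 was called by limma voom and without LLC 1. The 2 with an unadjusted p under 0.05, named after their values were seen, were Col9a1 and Col22a1. The study lists both among its down-regulated genes. Its methods give the limit of 0.05 for p-values and its figure captions for FDR, so its threshold may differ from the one used here. The log2 fold changes of the 3 ran from -0.90 to -0.34. Of the 8 genes described here, the study's text names Col6a1 and Col6a2 as strongly down-regulated.

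Of 6 receptor genes of collagen VI tested, 3 were lower in LLC. These were Antxr1, the anthrax toxin receptor 1 that binds collagen VI (log2 fold change -1.42, SE 0.21), Cspg4, the NG2 proteoglycan of pericytes (-1.06, SE 0.20), and Antxr2, the receptor that takes up collagen VI for degradation (-0.94, SE 0.19). Antxr1 averaged 3.73 ± 0.439 CPM (SD, n = 4) in Control and 1.39 ± 0.442 CPM (SD, n = 6) in LLC, without overlap. The 3 integrin subunits tested were not called by edgeR or DESeq2, and none had an unadjusted p under 0.05. Chosen for mention after their values were seen, Itgb1 averaged 158 ± 3.62 CPM in Control and 171 ± 20.3 CPM in LLC, and Itga1 averaged 8.51 ± 0.347 and 7.34 ± 1.62 CPM.

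Matrix proteins that bind these collagens were lower as well, 9 of 10 tested, with a median log2 fold change of -1.40. The count was 8 with upper-quartile scaling or limma voom, and 7 to 8 when 1 library was left out in turn. Fmod encodes fibromodulin, a small proteoglycan on fibrils, and went from 18.3 ± 1.56 CPM (SD, n = 4) to 3.13 ± 0.545 CPM (SD, n = 6), or -2.55 as a log2 fold change (SE 0.13, edgeR quasi-likelihood adjusted p = 2.29e-06). Tnc, for tenascin C (-2.13, SE 0.30), Comp, for cartilage oligomeric matrix protein (-1.91, SE 0.49), and Tnxb, for tenascin X (-1.57, SE 0.23), followed. Comp averaged 0.791 CPM in Control and 0.209 CPM in LLC, with a library at 0, and lost its call in 7 of 10 fits that left out 1 library. Tnc and Comp, with LLC medians of 0.352 and 0.187 CPM, passed the filter on low counts only through their Control libraries. They could be tested only because Control was higher. Matn1, Matn3 and Matn4 of the same list had too few counts to test. Vwa1, named after its value was seen, was the gene not called. It encodes a basement membrane protein that binds perlecan and collagen VI, and its log2 fold change was 0.34 (SE 0.27).

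Enzymes that hydroxylate collagen chains in the endoplasmic reticulum, and Serpinh1, the collagen chaperone HSP47, were not called. Of these 7 genes 0 were called by edgeR, DESeq2 or limma voom, 2 had an unadjusted p under 0.05, and their log2 fold changes ran from -0.39 to 0.28. Among 4 proteases, 2 were lower by edgeR and DESeq2, and all 4 by limma voom. Without LLC 1, 3 of the 11 hydroxylase, chaperone and protease genes were lower by edgeR. Mmp2, a gelatinase that cleaves denatured collagen, fell from 19.4 ± 1.88 CPM (SD, n = 4) to 4.82 ± 0.511 CPM (SD, n = 6), by 2.01 (SE 0.11) on the log2 scale. Bmp1, which removes the carboxy-terminal propeptide of fibrillar collagens, fell by 1.35 (SE 0.13).

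**Figure D4:**
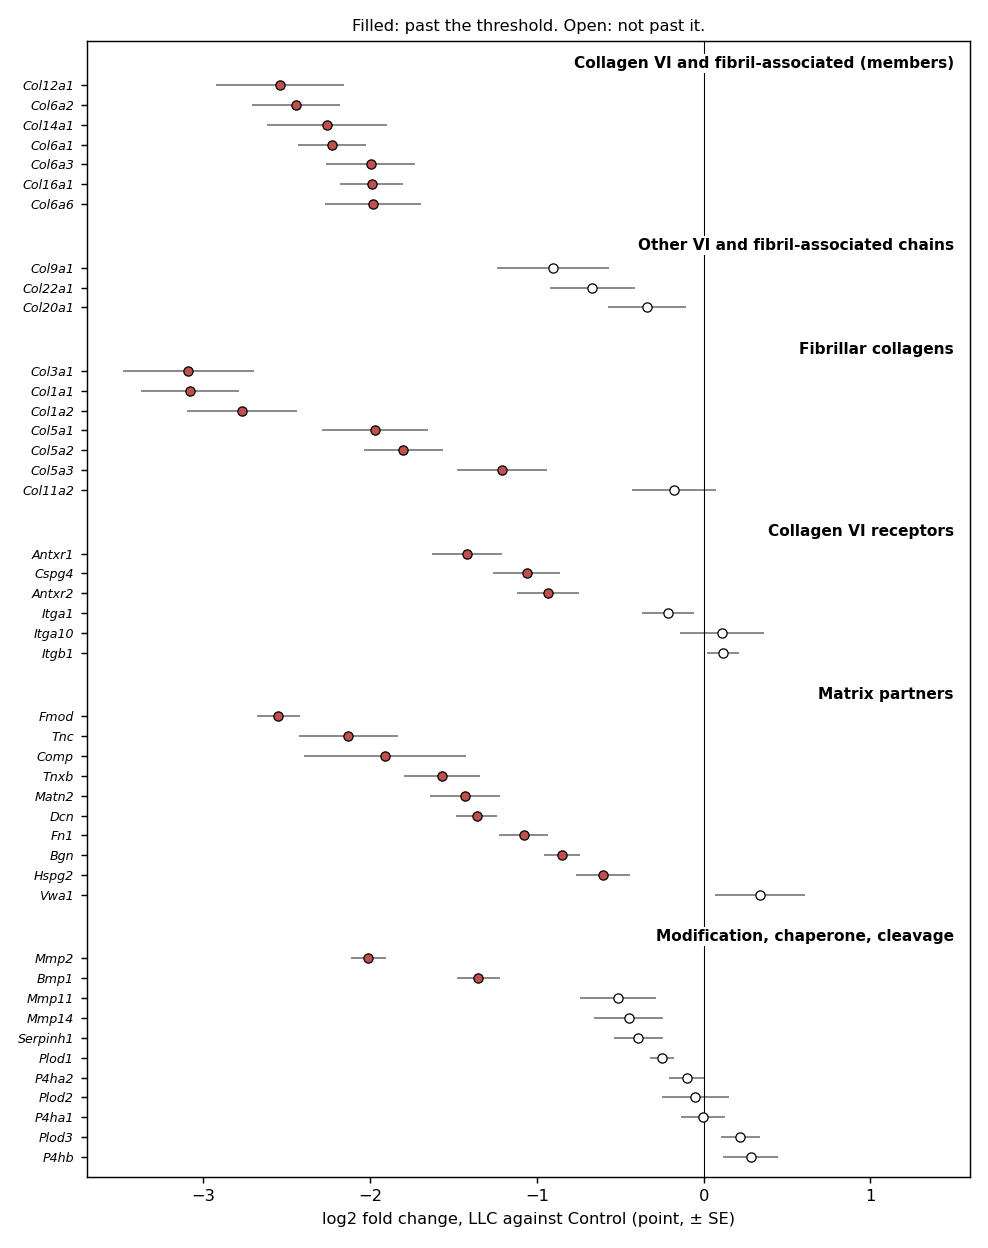
Log2 fold change of LLC against Control (x axis, log2 units, 0 marked) with its SE for the 7 tested members and 5 lists of related genes (rows). Filled points passed both limits of the edgeR test and open points did not. All 7 members are filled, integrins and hydroxylases sit near 0, and Col3a1 and Col1a1 lie furthest left.

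Markers of cells that could carry these transcripts moved too. Of 9 markers of fibro-adipogenic progenitors and fibroblasts, 7 were lower and 1 was higher. Among the 7, Dpp4, named after its values were seen, passed the filter on low counts only through its Control libraries. Pdgfra, their defining receptor, went from 6.01 ± 0.505 to 2.27 ± 0.353 CPM (log2 fold change -1.40, SE 0.14), and Ly6a, the surface protein Sca-1, from 27 ± 5.06 to 52.2 ± 8.55 CPM (log2 fold change 0.95, SE 0.15). The summed level of the 9 markers was 131 to 157 CPM in Control and 106 to 144 CPM in LLC. That sum includes Ly6a and Cd34, the markers that were not lower, so it does not track the 7 lower markers alone. Cd34, named after its values were seen, averaged 35.1 ± 2.38 CPM in Control and 42 ± 6.56 CPM in LLC and was not called. The part of fibro-adipogenic progenitors and fibroblasts in the fall of the collagen genes was not tested. The log2 fold changes of the 9 markers ran from -2.54 to 0.95, with a median of -1.55. Those of the 7 collagen genes ran from -2.54 to -1.98, with a median of -2.23.

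Among tendon markers 2 of 3 tested were lower, with summed CPM of 42 to 51.4 in Control and 6.58 to 25 in LLC. Tnmd, tenomodulin, was at 0.583 to 1.15 CPM in Control and 0 to 0.154 CPM in LLC, the latter at most at the floor of 3 counts. It passed the filter on low counts only through its Control libraries. Scx, the tendon transcription factor scleraxis, averaged 2.44 ± 0.479 and 2.31 ± 1.16 CPM and was not called. Of 4 cartilage markers, Acan at 0 to 0.0541 CPM in Control and 0 in LLC, Col2a1 at up to 0.164 CPM and Matn1 at 0 were at or near the floor. The remaining one, Sox9, mentioned after its values were seen, averaged 0.872 ± 0.268 CPM in Control and 1.15 ± 0.78 CPM in LLC and was not called (log2 fold change 0.42, SE 0.46). The part of tendon in the tissue taken was not tested.

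For the other cells of the muscle, 0 of 6 muscle fiber markers were called by edgeR or DESeq2 (2 with an unadjusted p under 0.05, 1 called by limma voom and 1 without LLC 1), as were 0 of 2 adipocyte markers, with none at an unadjusted p under 0.05, although both were lower without Control 4. Satellite cell markers, among them Pax7 (log2 fold change -1.01), were lower in 2 of 3 tested, those of endothelial cells in 1 of 5, of pericytes and smooth muscle in 2 of 4, of Schwann cells in 1 of 4 and of macrophages in 1 of 5. The satellite cell count was 1 without any 1 of Control 1, 2 or 4 or LLC 2, 3, 5 or 6, as Myf5 then lost its call. The endothelial count was 0 without any 1 of Control 1, 3 or 4 or LLC 6, and the Schwann cell count was 2 without LLC 1. All 5 neutrophil markers were higher, from a summed 0.636 to 1.78 CPM in Control to 30.4 to 67.2 CPM in LLC. Their lowest Control values were 0 to 0.162 CPM, below the filter of 0.523 CPM in at least 4 libraries. They thus passed that filter only through LLC, and could be tested only because LLC was higher.

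The genes outside the group whose profile over the 10 libraries was closest to that of Col6a1 were Thy1, Fndc1, Col5a1, Akap5 and Serpinf1. Likeness was measured as the Euclidean distance between differences of log2 CPM from the Control mean, and came to 0.933, 0.948, 1.03, 1.04 and 1.07 respectively, beside a median of 5.66 over all tested genes. Thy1 encodes a surface protein of fibroblasts, Serpinf1 a secreted serpin, and Akap5 a kinase anchoring protein. Within the group, Col6a3 at 0.701 and Col6a2 at 0.882 were nearer to Col6a1 than any of those. Col14a1 followed at 1.36, Col6a6 at 1.45 and Col16a1 at 1.46, and Col12a1 at 2.57 was the least like it. These distances are a description, in which every gene shares the same libraries and the same scaling.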

How the data were processed

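Total RNA of tibialis anterior from 10 mice was sequenced as stranded, paired-end reads of 100 bases, in 1 lane according to the study. The authors aligned reads to mm10 with TopHat2 and counted them per gene with HTSeq, and the deposited values are raw counts. The annotation release and the strand setting of the counting are not given in the sources used here. Groups came from the sample titles. Genes were named and placed with GENCODE M21 on GRCm38, which held 37693 of the 39179 identifiers.

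Counts were tested with edgeR 4.0.16 (R 4.3.3), with TMM factors, filterByExpr at its minimum count of 10, and a quasi-likelihood test on group. A call needed a Benjamini-Hochberg adjusted p of at most 0.05 and 1.5-fold. SE was the absolute log2 fold change over the square root of F. Log2 CPM used a prior count of 2. The 8 ratios, with 0.5 added to each count, were tested by exact permutation over all 210 splits. DESeq2 1.42.0 and limma voom 3.58.1 with sample quality weights were alternatives, beside other scalings, filters, a replicate block and leaving out each library. The scripts were tested on simulated data. Intervals and floors cover counting error only.

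The members and gene lists were chosen with earlier results of these data known. All 8 members are named. Of each list the text names up to 4 called genes with the largest change and the genes used in a ratio, of each marker list it may name the first 2, and for likeness the 5 nearest genes. Labels do not say whether mice shared cages or days.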

Additional observations from a re-analysis of the deposited data

Results flagged for a closer look

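Col6a6 in LLC 4, at 0.655 CPM, lay apart from the other 5 LLC libraries, of which the nearest was at 0.339 CPM. The gap was 0.631 of the range of the group, above Dixon's critical value for 6 samples. Of 32 groups of values examined 1 stood out, where chance gives about 1 in 20, or 1.6 groups. LLC 4 held 13 Col6a6 counts.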

How the results depend on the processing

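All 7 tested collagen genes kept their direction under every alternative that tested them, and each kept its call in every fit that left out 1 library. Leaving out 1 library in turn gave 110 to 288 genes higher, 284 to 678 lower (678 without LLC 1), and 0 to 1 of the other collagen VI and fibril-associated chains lower. Over the same fits the ratio differences ran from -0.329 to -0.18 for Col6a2 to Col6a1, 0.124 to 0.259 for Col6a3 to Col6a1, 0.369 to 0.588 for Col6a3 to Col6a2, -0.0621 to 0.17 for Col6a6 to Col6a3, -0.15 to 0.544 for Col14a1 to Col12a1, 0.4 to 0.918 for Col16a1 to Col12a1, -0.717 to -0.0898 for Col12a1 to Col6a1 and 0.791 to 0.937 for collagen VI to fibrillar collagen. Scx ranged from -0.296 to 0.151 (0.0477 without Control 1, 0.151 without LLC 1) and Itga10 from -0.0295 to 0.23 (-0.0295 without Control 2). With no filter 1 of the other chains was lower. Requiring 10 counts in every library left 116 genes higher and 3 of the collagen genes lower, since the others were no longer tested. DESeq2 called 388 higher. Limma voom called 1 of the other chains lower. It also called 4 genes of the modification, chaperone and cleavage list lower, all of them proteases. With unadjusted p, 626 genes were higher, 946 lower and 2 of the other chains lower. With no count added the ratio of Col6a6 to Col6a3 reversed to -0.0581. Replicate numbers did not pair the samples (correlations of -0.0292, 0.00932, -0.0814 and 0.126). Numbers 5 and 6 exist only in LLC, so with a replicate block LLC 5 and LLC 6 add nothing to the group comparison. The fit with a replicate block called 42 genes higher and 70 lower, with 3 collagen genes (Col6a1, Col6a2 and Col16a1), 0 receptors and 4 matrix partners lower, and adjusted p of 0.0546 for Col6a3, 0.0941 for Col6a6, 0.124 for Col12a1 and 0.0948 for Col14a1 by edgeR's quasi-likelihood test. The causes of these changes were not tested, except where stated. In all, 1660 values were recomputed, and 1545 of them stayed the same. For a gene or a ratio, the same meant an unchanged direction and call. For a count of genes it meant equal to or within 1.5-fold of the main count, and for a level per kilobase within its SD. Of the rest, 31 lost a call, 9 gained 1, 10 reversed and 65, all counts or levels, moved further than that. Depth limits Col6a5, and makes single LLC values of Col6a6, Col12a1 and Col14a1 rest on few counts.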
